A study of Mus musculus with 12 samples.

Results

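The upper-lip territory of the newborn mouse thalamus was compared between pups with the treatment labelled embWPC and control pups. The comparison took every library of the 2 groups, 8 of the 12 in the series: 4 of Ctrl ALBSF and 4 of embWPC ALBSF. ALBSF is the antero-lateral barrel subfield part of the ventroposterior medial nucleus (VPM), the part that receives touch from the upper lip. Both groups were postnatal day 0 mice, and they differed in the label of treatment alone. The labels do not spell out embWPC, and they name no strain, genotype, sex or litter. Each library held RNA from 5 pooled brains, sliced at 300 µm and microdissected by hand, so p-values measure the spread between pools and not between pups. The tissue is bulk: fewer cells of a type and less RNA per cell cannot be told apart in any value below. The 4 Ctrl PMBSF libraries, from the whisker part of the nucleus in control pups, were compared in no test and are quoted as levels. Beyond that they enter only an alternative fit of all 12 libraries.

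The VPM relays touch from the face to the primary somatosensory cortex, and its axons lay out a map there in which whiskers and lip hairs each have their own field. Relay neurons of neighbouring territories carry different sets of surface adhesion molecules, guidance receptors and transcription factors, which are known to steer where their axons grow and with which partners they connect. Cadherins and latrophilins are adhesion proteins of the cell surface, plexins are receptors for semaphorin guidance cues, and LIM-only proteins are partners of transcription factors in the nucleus.

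Library totals ran from 28457046 to 33702453 counts over the 8 libraries, and mitochondrial genes took 2.32 to 3.45% of them. The dissected tissue carried the markers of thalamic relay neurons in every library: Slc17a6, the vesicular glutamate transporter, lay between 329 and 420 CPM (counts scaled to a common library total), and Tcf7l2, the selector gene of the thalamus, between 690 and 1262 CPM. Some pools stood apart in single genes. Ttr, a choroid plexus gene, was 96.7 CPM in Ctrl ALBSF 2 and 2.43 to 8.37 CPM in the other 7 libraries, and Gbx2, a gene of young thalamic neurons, was 14.6 CPM in embWPC ALBSF 2 and 1.86 to 3.23 CPM in the other 3 pools of its group. The Ctrl ALBSF pools held 5.29 to 6.67 CPM of Gbx2, below the first of these and above the other 3. Xist, which is expressed from the inactive X of females, ran from 0.0675 CPM in Ctrl ALBSF 3 to 67.2 CPM in Ctrl ALBSF 2, so pools differed in their sex make-up, at 7.28 to 36.7 CPM in embWPC ALBSF. The first principal component, with 23.4% of the variance, mixed the groups, while on the second, with 18.7%, the Ctrl ALBSF pools scored 3.4 to 31.5 and the embWPC ALBSF pools -22.5 to -9.4.

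Lists of markers for 13 cell types were measured, that of thalamic relay neurons and others for neighbouring tissue or cells. Over the 120 marker entries tested, edgeR called 0, voom called 0 and DESeq2 called 5. These were Rora and Lhx2 of the relay neuron list, Col3a1, Aif1 and Hbb-bs. At an unadjusted p under 0.05, 3 entries were higher and 26 lower, 1 and 3 of them relay neuron markers. Over all 16845 genes tested, 805 were higher and 819 lower at that level (9.64% together). Summed markers of red blood cells ranged from 826 to 1307 CPM in Ctrl ALBSF and from 356 to 836 CPM in embWPC ALBSF (two-sided exact permutation test, p = 0.0571, smallest possible p 0.0286), and 0 of the 7 tested had a higher value in embWPC ALBSF. Summed microglia markers ranged from 76.0 to 127.5 CPM in Ctrl ALBSF and from 71.0 to 88.3 CPM in embWPC ALBSF, again with 0 of 10 higher. The GABAergic neuron list of the prethalamus, a neighbour of the VPM, ran from 10.5 to 73.7 CPM and from 15.6 to 49.8 CPM. Its members Gad1 and Gad2 averaged 5.35 and 3.47 CPM, and 0 of the 11 members tested were higher. Hypothalamus markers summed to 4.61 to 7.93 CPM and to 1.94 to 5.01 CPM (two-sided exact permutation test, p = 0.0571), with 0 of the 4 tested higher. Of choroid plexus and ependyma markers 0 of 5 were higher, of meninges 1 of 11 and of vessels 7 of 13. Among the 13 lists, vessels alone had a median log2 change above 0, at 0.03. The part of these shifts in the gene results was not tested.

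**Figure D1:**
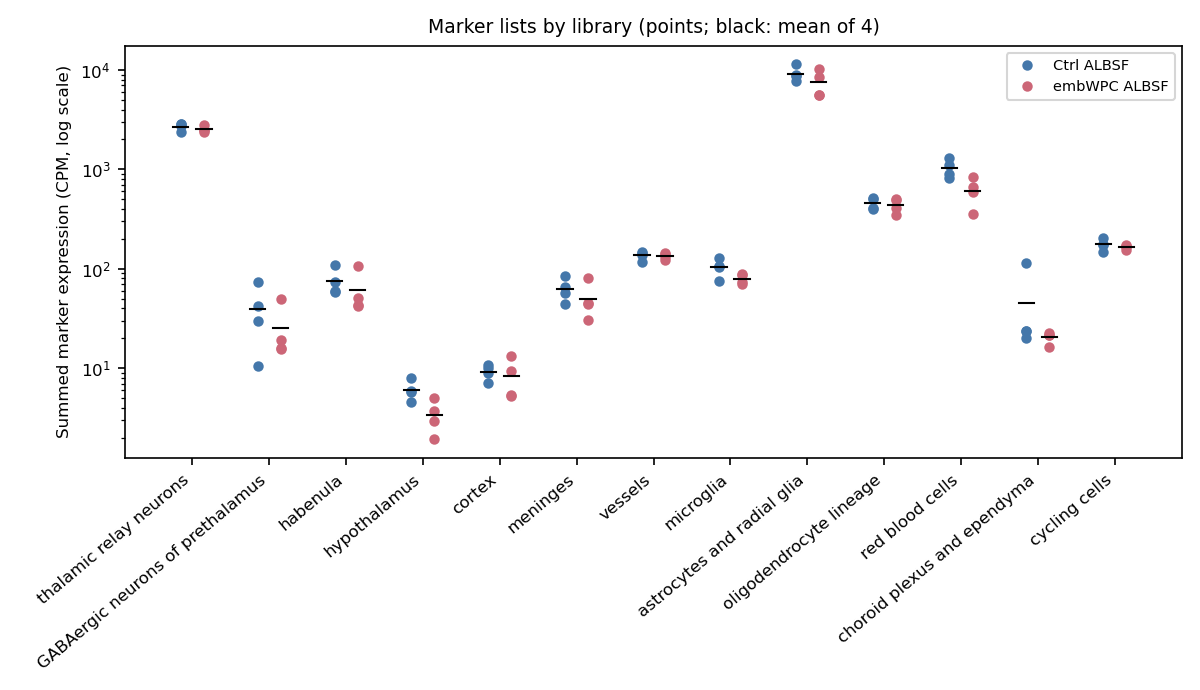
Summed expression of each marker list (CPM, log axis) in the 4 Ctrl ALBSF libraries (blue) and 4 embWPC ALBSF libraries (red), with the group mean as a black line. The groups overlap in the sum of relay neuron markers (2376 to 2861 CPM against 2396 to 2821 CPM), and the single high choroid plexus value of 115 CPM is Ctrl ALBSF 2.

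Between embWPC ALBSF and Ctrl ALBSF, 14 genes changed. Tll1, a secreted metalloprotease, Gnas, Smyd1 and Rps6ka2 rose, and Penk, Cdh9, Trbc2, Rgs10, Cdh22, Plxna2, Mt3, Lmo4, Cmtm8 and Adgrl2 fell. With edgeR's quasi-likelihood test these were 0.0831% of the 16845 genes tested (Benjamini-Hochberg adjusted p under 0.05), with 0.0237% higher and 0.0594% lower. Their adjusted p ran from 0.0322 to 0.0367, and the next gene stood at 0.0541. In all 14 called genes the 4 libraries of one group lay apart from the 4 of the other, as they did in 5.98% of all genes tested (3.51% with embWPC ALBSF higher and 2.47% lower).

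The number called turned on single pools, on the tool and on the design of the fit. Without Ctrl ALBSF 3, embWPC ALBSF 1, embWPC ALBSF 2 or embWPC ALBSF 3 edgeR called 0 genes, although 1186 to 1649 had an unadjusted p under 0.05. Without Ctrl ALBSF 4 it called 1 (Penk), without Ctrl ALBSF 2 it called 6, without embWPC ALBSF 4 it called 17 and without Ctrl ALBSF 1 it called 33. DESeq2 on the same 8 libraries called 177 genes, 66 higher and 111 lower, all 14 among them. With the replicate number as a block edgeR called 1 gene, Gnas. With all 12 libraries in the fit it called 11 genes, 7 of them among the 14. The sign of each of the 14 was the same in every one of these fits, which groups that do not overlap all but fix. With 1 pool left out their adjusted p reached 0.163 at most; Adgrl2, Penk and Rgs10 were called in 3 of these 8 fits, Cdh9, Smyd1 and Cmtm8 in 1 and the other 8 genes in 2.

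**Figure D2:**
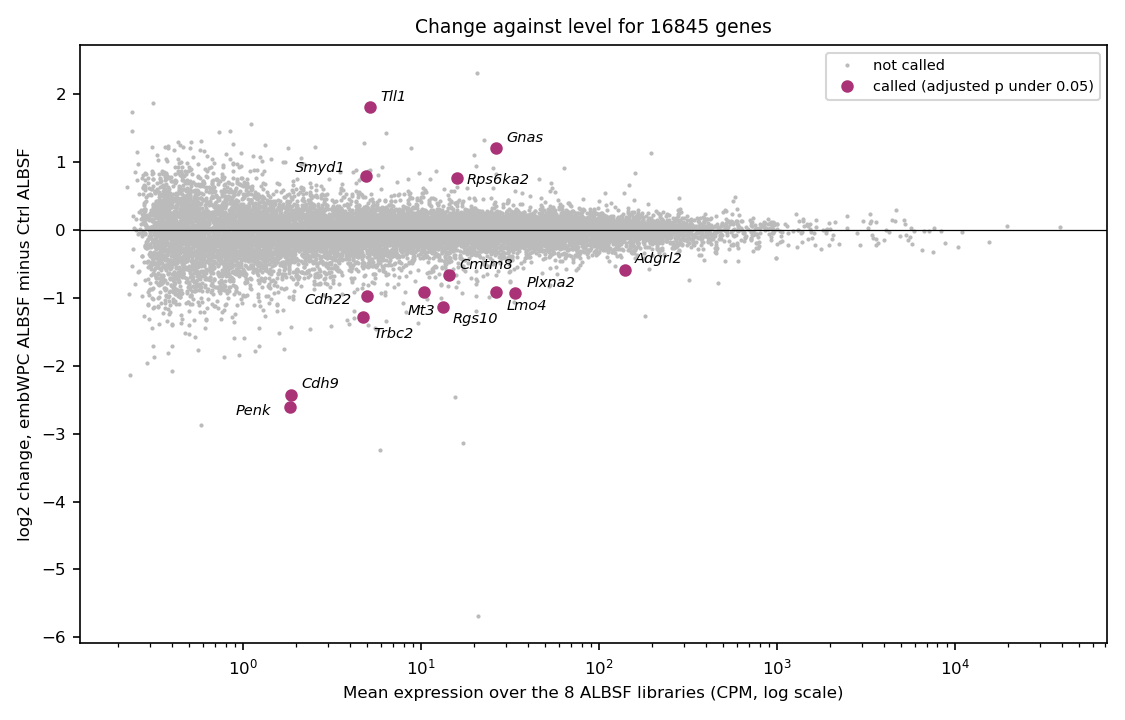
Log2 change of embWPC ALBSF against Ctrl ALBSF (vertical) by mean expression over the 8 libraries (CPM, log axis) for 16845 genes. The 14 called genes are in purple, from Penk at -2.60 to Tll1 at 1.81. Grey points farther from 0 did not pass the test.

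Among surface adhesion genes, Adgrl2, Cdh9 and Cdh22 fell. Adgrl2 (chr3:148518957-148696229 of GRCm39, minus strand) codes for latrophilin-2, an adhesion receptor that binds teneurins and FLRT proteins. It was the most abundant called gene, at 170, 156, 168 and 175 CPM in Ctrl ALBSF 1 to 4. The embWPC ALBSF pools stood at 116, 114, 100.3 and 117 CPM, all under the lowest control pool. The log2 change was -0.58 ± 0.08 (SE, n = 4 per group, adjusted p = 0.0322), a fall of 33.2% with an interval of -0.75 to -0.42 on the log2 scale. Its relative spread was small: SDs were 8.01 CPM on a mean of 167.5 and 7.72 CPM on a mean of 111.8.

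Cdh9 (chr15:16728507-16857226, plus strand) is a type II cadherin, a homophilic adhesion molecule known from matching neurons to their synaptic partners. Control pools 1 to 4 gave 1.32, 4.17, 3.91 and 3.14 CPM, and embWPC ALBSF pools 0.461, 0.792, 0.517 and 0.551 CPM. The lowest control pool, Ctrl ALBSF 1, was still above the highest embWPC ALBSF pool. These levels rest on 41 to 121 counts per control pool and 14 to 25 counts per embWPC ALBSF pool, and the log2 change was -2.42 ± 0.35 (adjusted p = 0.0322). Cdh22 (chr2:164953045-165076940, minus strand), of the same family, stood at 5.93, 6.40, 7.12 and 6.96 CPM in the controls and at 3.00, 3.33, 3.17 and 3.99 CPM in embWPC ALBSF. It fell by 0.97 ± 0.13 on the log2 scale (adjusted p = 0.0322), and its groups did not overlap.

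Plxna2 was the called guidance receptor. It codes for plexin-A2, through which class 6 semaphorins, and class 3 semaphorins with neuropilins, act on growth cones (chr1:194300526-194499177, plus strand). Its level was 33.2, 46.2, 49.6 and 47.4 CPM in Ctrl ALBSF 1 to 4 and 22.3, 23.0, 24.7 and 22.4 CPM in embWPC ALBSF 1 to 4. The treated pools were close to one another (SD 1.10 CPM), and Ctrl ALBSF 1 was the lowest of the controls. The log2 change was -0.93 ± 0.12 (adjusted p = 0.0322), or 47.6% lower.

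Of the secreted products, Penk fell and Tll1 rose, and these were the largest changes called in each direction. Penk (chr4:4132722-4141856, minus strand) codes for proenkephalin, the precursor of the opioid enkephalins. It was 4.42, 3.79, 3.04 and 1.36 CPM in Ctrl ALBSF 1 to 4, and 0.395, 0.539, 0.485 and 0.630 CPM in embWPC ALBSF 1 to 4. The counts behind these values were 42 to 137 and 12 to 24 per pool, and the log2 change was -2.60 ± 0.35 (adjusted p = 0.0322 by edgeR and 0.0669 by voom with quality weights). The GABAergic markers of the prethalamus summed to 73.7, 42.1, 30.05 and 10.5 CPM in the same controls, the order in which Penk stood there. In embWPC ALBSF they summed to 15.8, 15.6, 19.3 and 49.8 CPM, so the pool with 49.8 CPM of these markers held 0.630 CPM of Penk, while Ctrl ALBSF 3, with 30.05 CPM of them, held 3.04 CPM. The part of these neurons in the Penk result was not tested.

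Tll1 (chr8:64466142-64659305, minus strand) codes for tolloid-like 1, a metalloprotease that cleaves chordin, an inhibitor of bone morphogenetic proteins, and procollagens. Control pools 1 to 4 had 3.13, 2.89, 1.86 and 1.29 CPM. The embWPC ALBSF pools had 5.996, 7.70, 8.88 and 9.52 CPM, each above every control. This was a rise of 1.81 ± 0.25 on the log2 scale (3.50-fold, interval 1.26 to 2.36 on the log2 scale, adjusted p = 0.0322), from 40 to 97 counts per control pool to 182 to 363.

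The bases just before the start of Tll1, which rose most, and of Cdh9, a called gene that fell by more than 2 log2 units, are shown as the regulatory sequence next to these changes. They are the 250 bases upstream in RefSeq's GRCm38.p6 table, chr8:64206009-64206258 on the minus strand for Tll1 and chr15:16728665-16728914 on the plus strand for Cdh9, with CG dinucleotides in capitals.
Tll1: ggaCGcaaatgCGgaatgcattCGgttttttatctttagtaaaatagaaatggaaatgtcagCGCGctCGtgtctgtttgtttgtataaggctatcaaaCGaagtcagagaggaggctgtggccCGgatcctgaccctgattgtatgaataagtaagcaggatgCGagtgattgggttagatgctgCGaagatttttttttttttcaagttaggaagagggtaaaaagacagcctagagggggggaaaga
Cdh9: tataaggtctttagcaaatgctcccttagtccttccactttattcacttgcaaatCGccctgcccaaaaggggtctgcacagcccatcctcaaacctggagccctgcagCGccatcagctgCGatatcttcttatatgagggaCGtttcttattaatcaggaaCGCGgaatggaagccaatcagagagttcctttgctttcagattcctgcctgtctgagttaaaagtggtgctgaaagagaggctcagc
The Tll1 window holds 10 CG dinucleotides and the Cdh9 window 6, against a median of 15 over 14918 windows of 11594 tested genes. Of the 14 called genes 12 had an entry, with 17 windows, and Penk and Trbc2 had none. The POU octamer ATGCAAAT, the cyclic AMP response element TGACGTCA and the nuclear receptor motif AGGTCA, searched on both strands, are in 1.2%, 2.45% and 10.8% of all windows and in 0 of these 17.

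Lmo4 was the called transcription gene. It codes for a LIM-only protein that binds the cofactor Ldb1 and is known for its role in barrel cortex patterning (chr3:143894143-143911774, minus strand). Control pools had 32.8, 26.8, 40.8 and 38.0 CPM and embWPC ALBSF pools 20.8, 19.6, 16.1 and 17.4 CPM. The log2 change was -0.91 ± 0.13 (adjusted p = 0.0322), and the lowest control, Ctrl ALBSF 2, lay above the highest treated pool.

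Rgs10, Rps6ka2 and Gnas act in signalling inside the cell. Rgs10 (chr7:127975345-128020482, minus strand), a GTPase-activating protein of inhibitory G proteins that microglia are rich in, fell. It stood at 14.7, 24.6, 18.1 and 15.4 CPM in the controls and at 6.85, 8.59, 8.85 and 8.97 CPM in embWPC ALBSF (log2 change -1.13 ± 0.16, adjusted p = 0.0322). The 10 microglia markers had a median log2 change of -0.44 beside it, with 0 called by edgeR, 5 at an unadjusted p under 0.05 and 1 (Aif1) called by DESeq2, and their part in the Rgs10 value was not tested. They summed to 127.5, 107.2, 104.5 and 76.0 CPM in Ctrl ALBSF 1 to 4 and to 71.0, 86.1, 72.9 and 88.3 CPM in embWPC ALBSF 1 to 4. Rps6ka2 (chr17:7292942-7570957, plus strand), the RSK3 kinase downstream of ERK, rose from 12.4, 13.5, 11.3 and 9.71 CPM to 17.7, 20.8, 20.8 and 20.7 CPM (log2 change 0.77 ± 0.11, adjusted p = 0.0322). It overlaps 2 other genes of the files, 1 on its strand, and 1 of the 2 is coding. On their own strand Plxna2 overlaps 4 genes of the files, and Lmo4 and Rgs10 overlap 1 each. How reads shared by such genes were assigned is not stated in the sources used here, which leaves these counts uncertain.

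Gnas (chr2:174126022-174188537, plus strand) codes for the stimulatory G protein alpha subunit and lies in an imprinted locus with several overlapping transcripts. Its counts were 14.1, 14.35, 20.6 and 14.6 CPM in the controls and 33.9, 36.7, 49.1 and 27.8 CPM in embWPC ALBSF. It rose by 1.21 ± 0.17 on the log2 scale (adjusted p = 0.0322). The count is uncertain: 4 other genes of the files overlap Gnas, 3 of them on its strand, and how shared reads were assigned is not stated in the sources used here. Those 4 genes lay at or under 0.516 CPM in all 8 libraries, which does not show how many shared reads were left uncounted.

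The remaining called genes belong to no list used here. Mt3 (chr8:94879220-94881088, plus strand), a zinc-binding metallothionein of brain, stood at 15.3, 13.4, 12.3 and 13.7 CPM in the controls and 8.17, 6.31, 8.24 and 6.24 CPM in embWPC ALBSF, a log2 change of -0.92 ± 0.12 (adjusted p = 0.0322). Astrocytes are a known source of Mt3, and the summed markers of astrocytes and radial glia ran from 7767 to 11420 CPM in the controls and from 5570 to 10300 CPM in embWPC ALBSF. Most of that sum was Fabp7, at 4721 to 10630 CPM, and the list did not move as one: in embWPC ALBSF 4, where Fabp7 was lowest, Slc1a3 stood at 232 CPM within a range of 158 to 237 CPM over the 8 libraries and Ttyh1 at its highest, 216 CPM. The part of these cells in the Mt3 value was not tested. Cmtm8 (chr9:114618411-114673648, minus strand), a membrane protein of the CMTM family, stood at 18.8, 17.8, 17.2 and 16.6 CPM against 9.78, 11.5, 10.4 and 12.75 CPM (-0.66 ± 0.10, adjusted p = 0.0367). The treated pools of both genes lay below all control pools.

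Trbc2 (chr6:41523664-41525286, plus strand), annotated as a constant segment of the T cell receptor beta chain, fell from 5.87, 7.19, 7.22 and 6.70 CPM to 2.11, 3.61, 2.10 and 3.25 CPM (-1.28 ± 0.19, adjusted p = 0.0333). T cell genes chosen after this value was seen were near absent: 7 of 8, Cd3d, Cd3e, Cd3g, Trac, Trbc1, Cd4 and Cd8a, stayed under 1 CPM in all 8 libraries, and Lck lay between 6.64 and 10.3 CPM. Smyd1 (chr6:71190923-71299217, minus strand), a lysine methyltransferase known from heart and skeletal muscle, rose from 3.22, 3.51, 3.71 and 3.82 CPM to 6.59, 6.21, 6.40 and 5.69 CPM (0.80 ± 0.12, adjusted p = 0.0367). Of 10 muscle genes chosen in the same way 7 stayed under 1 CPM in all 8 libraries, and Acta1 lay between 14.9 and 22.9 CPM. Smyd1 overlaps the coding gene Krcc1 on the other strand, whose log2 change was -0.22 (adjusted p = 0.517), and the strand setting of the counting is not stated in the sources used here.

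**Figure D3:**
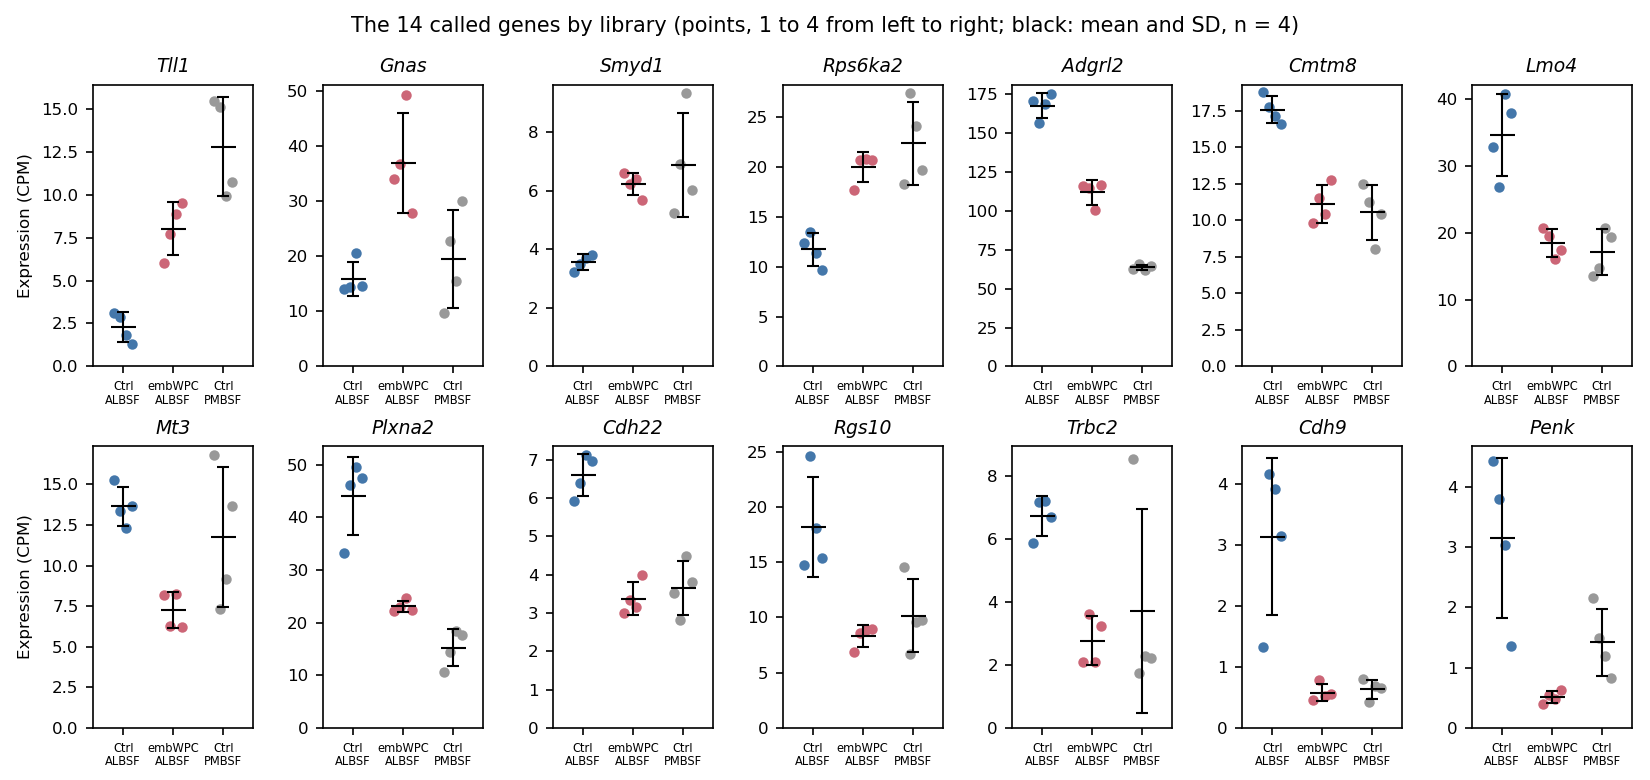
Expression (CPM, axes from 0) of the 14 called genes in each library of Ctrl ALBSF (blue), embWPC ALBSF (red) and, as a level outside the test, Ctrl PMBSF (grey), with mean and SD of 4 pools. In every panel the red points lie wholly above or below the blue ones, which a choice by p all but fixes. Tll1, for example, lies at 5.996 to 9.52 against 1.29 to 3.13 CPM.

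The levels of the called genes in the whisker territory of control pups stood as follows, with no test. These genes were chosen for a difference from the same Ctrl ALBSF pools, which favours levels on the embWPC ALBSF side in any other group. How often other genes stood in this way was not counted. Ctrl PMBSF 1 to 4 held 62.5, 65.6, 62.2 and 64.7 CPM of Adgrl2, 10.6, 14.4, 18.4 and 17.6 CPM of Plxna2 and 15.5, 15.1, 9.91 and 10.7 CPM of Tll1. For Adgrl2 and Plxna2 the embWPC ALBSF pools lay between the Ctrl PMBSF and the Ctrl ALBSF pools, and for Tll1 their highest pool, 9.52 CPM, lay just below the lowest of Ctrl PMBSF. Cdh9 was 0.418 to 0.795 CPM in Ctrl PMBSF, which overlapped its 0.461 to 0.792 CPM in embWPC ALBSF. Lmo4 stood at 13.5, 14.8, 20.8 and 19.4 CPM there, Cdh22 at 3.53, 2.81, 4.48 and 3.80 CPM, Cmtm8 at 12.5, 11.2, 8.01 and 10.4 CPM and Smyd1 at 5.22, 6.90, 9.32 and 6.02 CPM. Rgs10 was at 14.6, 6.72, 9.56 and 9.75 CPM and Rps6ka2 at 18.3, 27.4, 24.1 and 19.7 CPM. Penk stood at 2.15, 1.49, 1.20 and 0.833 CPM, above each embWPC ALBSF pool. Trbc2 at 8.56, 1.76, 2.28 and 2.22 CPM, Mt3 at 16.8, 7.32, 9.18 and 13.6 CPM and Gnas at 9.62, 22.8, 15.5 and 30.1 CPM were spread widely over the Ctrl PMBSF pools.

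The 12 genes next in order of p did not pass the test, with adjusted p from 0.0541 to 0.0607; they were taken for their small p. Dusp4, a phosphatase of MAP kinases, stood at 9.51, 9.88, 6.81 and 7.93 CPM in the controls and 15.3, 18.8, 15.1 and 13.4 CPM in embWPC ALBSF (log2 0.87 ± 0.14, adjusted p = 0.0541). Pcdh10, a delta protocadherin, stood at 29.5, 44.4, 44.65 and 41.1 CPM and at 21.4, 24.3, 24.2 and 24.7 CPM (-0.76 ± 0.12). Cdh10, a further type II cadherin, had 20.02, 18.6, 19.5 and 19.5 CPM and 9.72, 12.3, 12.5 and 14.25 CPM (-0.67 ± 0.11). Each of the 3 had control pools wholly on one side of the treated pools, which a choice by p all but fixes.

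In the same set, Vcan, the chondroitin sulfate proteoglycan versican, stood at 15.2 to 19.2 CPM in the controls and 5.90 to 10.7 CPM in embWPC ALBSF (-0.99 ± 0.17). Hs6st2, a heparan sulfate 6-O-sulfotransferase, stood at 9.58 to 16.9 CPM and 19.9 to 32.8 CPM (1.11 ± 0.19), and Nr2f2, the nuclear receptor COUP-TFII, at 34.3 to 44.4 CPM and 23.5 to 28.7 CPM (-0.57 ± 0.10). Dpysl4, a cytoskeletal CRMP protein of growing axons, stood at 96.3 to 105 CPM and 129 to 137 CPM (0.39 ± 0.07), the smallest difference of the 12. The other members were Smyd2 (0.45), C2cd4b (0.87) and Dcdc2a (0.58), with higher values in embWPC ALBSF on the log2 scale, and Crispld2 (-0.94) and Tmem91 (-0.85), with lower ones. Tmem91 overlaps 2 coding genes on the other strand.

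**Figure D4:**
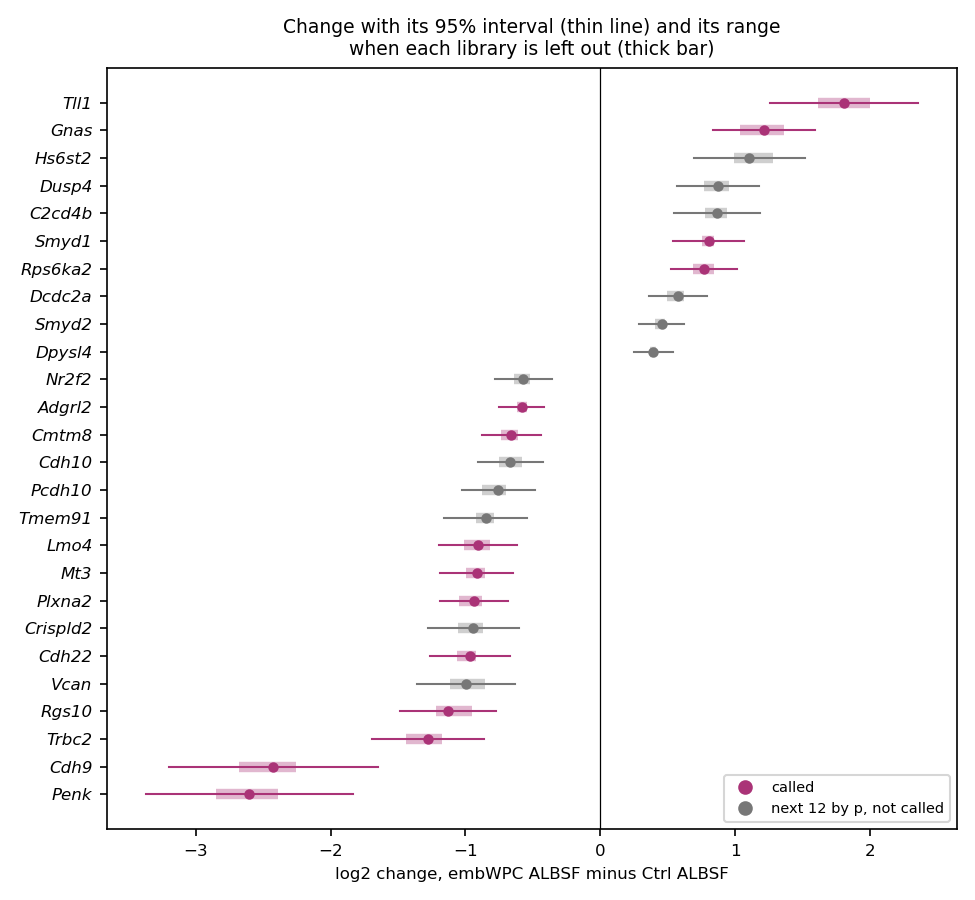
Log2 change of embWPC ALBSF against Ctrl ALBSF for the 14 called genes (purple) and the next 12 (grey), with the 95% interval of the fit (thin line) and the range of the change when each of the 8 libraries is left out in turn (thick bar). No interval reaches 0, which the choice of these genes by p fixes, and Penk moves most between pools left out, from -2.85 to -2.39.

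Lists of related genes set the called genes beside their families. The lists were chosen with earlier results of these data known, so their counts are no independent measure of how far a change extends. Some genes, such as Rora and Lhx2, are in more than 1 list. Each median below is on the log2 scale and is to be read beside the median of 0.0023 over all genes tested. The counts of members are to be read beside the shares over all genes, 0.0831% called and 9.64% at an unadjusted p under 0.05, the latter split almost evenly between higher and lower. Of 12 type II cadherins tested 2 were called lower and 0 higher (4 lower and 1 higher at an unadjusted p under 0.05), with a median of -0.10. DESeq2 called Cdh9, Cdh22 and Cdh10 lower and Cdh8 higher. Cdh8, which stood at 72.0 to 103.7 CPM in the controls and 104.7 to 154.8 CPM in embWPC ALBSF (0.55 ± 0.14, adjusted p = 0.193), had the highest log2 change of the 12. Of 4 classical cadherins 0 were called by edgeR and 1, Cdh4, by DESeq2, with 3 at an unadjusted p under 0.05. Cdh4 (R-cadherin) stood at 32.7 to 40.5 and 23.3 to 30.04 CPM (-0.50 ± 0.10, adjusted p = 0.0926) and Cdh2 (N-cadherin) at 64.1 to 71.0 and 73.9 to 90.3 CPM (0.25 ± 0.08, adjusted p = 0.314).

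Of 11 latrophilins, teneurins and FLRTs, Adgrl2 alone was called, with 6 lower and 2 higher at an unadjusted p under 0.05 and a median of -0.27. Tenm1, a teneurin that latrophilins bind, stood at 56.7 to 80.8 CPM and 44.6 to 48.8 CPM (-0.55 ± 0.10, adjusted p = 0.0690). Flrt3 (-0.49 ± 0.11, adjusted p = 0.140) and Flrt2 (-0.54 ± 0.14, adjusted p = 0.221) were not called by edgeR and were called lower by DESeq2, as was Tenm1. Of 10 delta protocadherins 0 were called (4 lower and 1 higher at an unadjusted p under 0.05), and DESeq2 called Pcdh10 and Pcdh11x and voom Pcdh10. Pcdh11x stood at 46.7 to 64.3 and 28.8 to 45.8 CPM (-0.64 ± 0.14, adjusted p = 0.125).

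Synaptic organisers held no called gene by edgeR. Nxph1, a secreted ligand of alpha-neurexins, stood at 28.5, 33.1, 29.0 and 23.1 CPM in the controls and 8.63, 16.7, 8.92 and 15.2 CPM in embWPC ALBSF (-1.20 ± 0.21, adjusted p = 0.0607), and both DESeq2 and voom called it. Of its 12 neurexins, neurexophilins and neuroligins 3 were lower and 0 higher at an unadjusted p under 0.05. Of 16 Slitrks, Lrrtms and cerebellins 5 were lower and 0 higher in the same sense, and DESeq2 called Slitrk6, Cbln2 and Cbln1. Slitrk6 stood at 28.4 to 37.7 and 16.8 to 26.5 CPM (-0.60 ± 0.13, adjusted p = 0.125) and Cbln2, a bridge between neurexins and glutamate delta receptors, at 60.7 to 86.9 and 35.1 to 52.3 CPM (-0.65 ± 0.15, adjusted p = 0.135). Cntn3, an adhesion protein of the contactin family of which 0 of 16 list members were called (2 higher and 1 lower at an unadjusted p under 0.05), stood at 6.71 to 9.47 and 1.81 to 5.09 CPM (-1.46 ± 0.27, adjusted p = 0.0750), and DESeq2 and voom called it.

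Guidance genes other than Plxna2 were not called. Of 10 plexins and neuropilins 1 was called lower, with a median of -0.10. For 20 semaphorins, the ligands of plexins, 0 were called by edgeR, DESeq2 or voom (2 lower and 1 higher at an unadjusted p under 0.05), and Sema3f had 16.2 to 18.5 and 18.8 to 26.8 CPM (0.45 ± 0.11, adjusted p = 0.198). For 21 ephrins and Eph receptors the 3 tools also called 0, with 5 lower and 1 higher at an unadjusted p under 0.05. Epha4 stood at 123 to 133 CPM in the controls and 99.1 to 117 CPM in embWPC ALBSF (-0.27 ± 0.08, adjusted p = 0.256). Of 19 Robo, Slit, netrin and Unc5 genes 0 were called by edgeR (4 lower and 0 higher at an unadjusted p under 0.05) and Robo1 by DESeq2, at 15.4 to 19.7 and 9.65 to 15.2 CPM (-0.57 ± 0.14, adjusted p = 0.198).

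Genes of thalamic identity were not called either. Of 22 transcription factors of relay neurons 0 were called by edgeR, with 4 higher and 6 lower at an unadjusted p under 0.05 and a median of -0.04. Rora, a nuclear receptor needed for thalamic axons to form barrels, stood at 487, 478, 480 and 499.5 CPM and at 737, 607, 688 and 587.5 CPM (0.43 ± 0.09, adjusted p = 0.123), with no overlap between the groups. Foxp1 stood at 52.4, 56.2, 71.1 and 89.4 CPM and at 39.1, 44.5, 35.2 and 33.7 CPM (-0.82 ± 0.16, adjusted p = 0.0840), and Etv1, an ETS factor, at 19.2 to 29.8 and 11.9 to 16.9 CPM (-0.71 ± 0.15, adjusted p = 0.123). DESeq2 called Rora higher and Foxp1, Etv1 and Lhx2 lower, and voom called Foxp1. Tcf7l2 overlapped between the groups, at 845 to 1262 and 690 to 1104 CPM (-0.40 ± 0.16, adjusted p = 0.465, 95% interval -0.76 to -0.05). Lef1, in contrast, stood at 96.5 to 104.0 and 91.9 to 117.7 CPM (0.08 ± 0.09, adjusted p = 0.810, 95% interval -0.13 to 0.28).

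Among LIM genes edgeR and voom called Lmo4 alone of 11, and DESeq2 called Lmo4 and Lhx2 (3 lower and 1 higher at an unadjusted p under 0.05, median -0.31). Lhx2, a LIM-homeobox factor, stood at 3.16, 7.71, 4.52 and 2.78 CPM and at 1.75, 3.07, 0.904 and 1.13 CPM, so its groups overlapped (-1.41 ± 0.40, adjusted p = 0.262). Lmo2 had 18.6 to 21.1 and 11.8 to 17.4 CPM (-0.45 ± 0.12, adjusted p = 0.237). Of 8 POU factors 0 were called by edgeR (1 higher and 1 lower at an unadjusted p under 0.05), and DESeq2 and voom called Pou2f2, which stood at 40.3, 42.1, 29.9 and 25.8 CPM and 52.9, 58.4, 59.0 and 62.5 CPM (0.75 ± 0.14, adjusted p = 0.0750). Of 13 nuclear receptors edgeR called 0 (3 higher and 3 lower at an unadjusted p under 0.05) while DESeq2 called Rora, Nr1d2 and Nr2f2 and voom called Nr2f2.

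Of 19 markers of sensory relay nuclei or of the higher-order nuclei beside them, 0 were called by edgeR, with 5 higher and 4 lower at an unadjusted p under 0.05 and a median of -0.03. DESeq2 called 6, and voom called 2 of these, Hs6st2 and Htr1b. Htr1b, the presynaptic serotonin receptor 1B that thalamic axons carry, stood at 27.0, 29.98, 25.2 and 27.1 CPM and 41.3, 33.6, 48.2 and 39.04 CPM (0.57 ± 0.11, adjusted p = 0.0793). Ppp1r17 stood at 17.4 to 21.4 and 23.2 to 37.0 CPM (0.61 ± 0.15, adjusted p = 0.181).

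Of 20 serotonin, histamine and dopamine genes 0 were called by edgeR (5 higher and 2 lower at an unadjusted p under 0.05), 3 by DESeq2 (Hdc, Htr1b and Maoa) and 1 by voom (Htr1b). Maoa, which breaks down serotonin, stood at 49.0 to 57.6 and 38.5 to 42.5 CPM (-0.37 ± 0.07, adjusted p = 0.0901). Htr7 overlapped between the groups, at 10.1 to 24.3 and 17.9 to 52.6 CPM (0.92 ± 0.31, adjusted p = 0.368), as did Hdc, the histamine-forming enzyme, at 2.83 to 6.77 and 5.53 to 10.1 CPM (0.93 ± 0.27, adjusted p = 0.267).

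Opioid genes other than Penk were not called. The 8 tested had a median of -0.38, and Pnoc, the precursor of nociceptin, stood at 15.3 to 28.2 and 9.14 to 13.5 CPM (-0.84 ± 0.19, adjusted p = 0.125), which DESeq2 called. Of 19 other neuropeptide and receptor genes 0 were called by edgeR (5 lower and 1 higher at an unadjusted p under 0.05), with the lowest median of the 31 lists described, -0.41. Npy1r, a neuropeptide Y receptor, was the 1 that DESeq2 called, at 10.5 to 19.0 and 8.02 to 9.85 CPM (-0.70 ± 0.16, adjusted p = 0.137). These 2 lists hold peptides of the neighbouring hypothalamus and prethalamus, whose marker lists had medians of -0.83 and -0.54, and the part of those tissues was not tested.

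Tll1 was the 1 gene that edgeR and voom called of 31 tolloid, BMP and activin genes (5 higher and 5 lower at an unadjusted p under 0.05, median 0.02). Inhba, an activin subunit that neuronal activity induces in other settings, stood at 8.22, 6.27, 7.66 and 14.2 CPM and 4.94, 4.44, 3.23 and 1.89 CPM (-1.34 ± 0.30, adjusted p = 0.135). Inhbb overlapped between the groups, at 4.53 to 7.81 and 2.67 to 4.75 CPM (-0.80 ± 0.20, adjusted p = 0.199). DESeq2 called both subunits lower and, beside Tll1, Smad6, an inhibitory SMAD, higher. Of 21 secreted Wnt pathway genes the 3 tools called 0 (3 higher and 5 lower at an unadjusted p under 0.05), with Sfrp2, a Wnt-binding protein, at 15.7 to 21.4 and 22.03 to 30.9 CPM (0.46 ± 0.12, adjusted p = 0.222). Of 19 FGF, neurotrophin and GDNF genes the 3 tools likewise called 0 (3 higher and 2 lower at an unadjusted p under 0.05), with Ntf3 (neurotrophin-3) at 8.37 to 19.2 and 4.58 to 10.6 CPM (-1.01 ± 0.29, adjusted p = 0.260).

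Of 30 heparan and chondroitin sulfate genes 0 were called by edgeR, with 7 higher and 1 lower at an unadjusted p under 0.05 and a median of 0.02. Beside Hs6st2 and Vcan, Gpc5, a glypican, stood at 2.46 to 3.93 and 4.53 to 6.66 CPM (0.86 ± 0.19, adjusted p = 0.123), and DESeq2 called these 3 and voom the first 2. Ndst3, which begins heparan sulfate modification, had 2.73 to 4.87 and 5.17 to 10.1 CPM (0.81 ± 0.23, adjusted p = 0.262).

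Genes of excitability and transmission were not called by edgeR or by voom. For 44 potassium channel genes 1 was higher and 9 lower at an unadjusted p under 0.05 (median -0.09), and DESeq2 called 2. Kcnip1, an A-type channel partner, stood at 7.15 to 13.3 and 3.72 to 7.08 CPM (-0.91 ± 0.22, adjusted p = 0.187). Of 15 AMPA, kainate and NMDA receptor subunits 0 were higher and 3 lower at an unadjusted p under 0.05, with Grik4 at 4.98 to 6.54 and 2.14 to 4.02 CPM (-0.87 ± 0.19, adjusted p = 0.123), which DESeq2 called. Among 36 genes of presynaptic release 2 were higher and 4 lower in that sense, with Rims2 at 53.1 to 60.1 and 66.1 to 73.4 CPM (0.32 ± 0.07, adjusted p = 0.125) and Cplx2 at 11.3 to 21.2 and 8.08 to 10.2 CPM (-0.79 ± 0.19, adjusted p = 0.164), both called by DESeq2.

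Immediate early genes, which neurons switch on when they fire, had 0 of 29 called by edgeR (4 higher and 1 lower at an unadjusted p under 0.05, median 0.02), and DESeq2 and voom called Dusp4. Egr1 stood at 46.0, 12.2, 12.9 and 13.8 CPM in the controls and 37.1, 24.0, 25.6 and 16.1 CPM in embWPC ALBSF, and Fos at 9.70, 5.03, 5.33 and 4.53 CPM and 6.95, 7.32, 5.33 and 5.88 CPM. Ctrl ALBSF 1 was the highest of the 8 pools in both. Of 21 genes of axon injury and growth the 3 tools called 0, with 4 lower and 0 higher at an unadjusted p under 0.05.

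**Figure D5:**
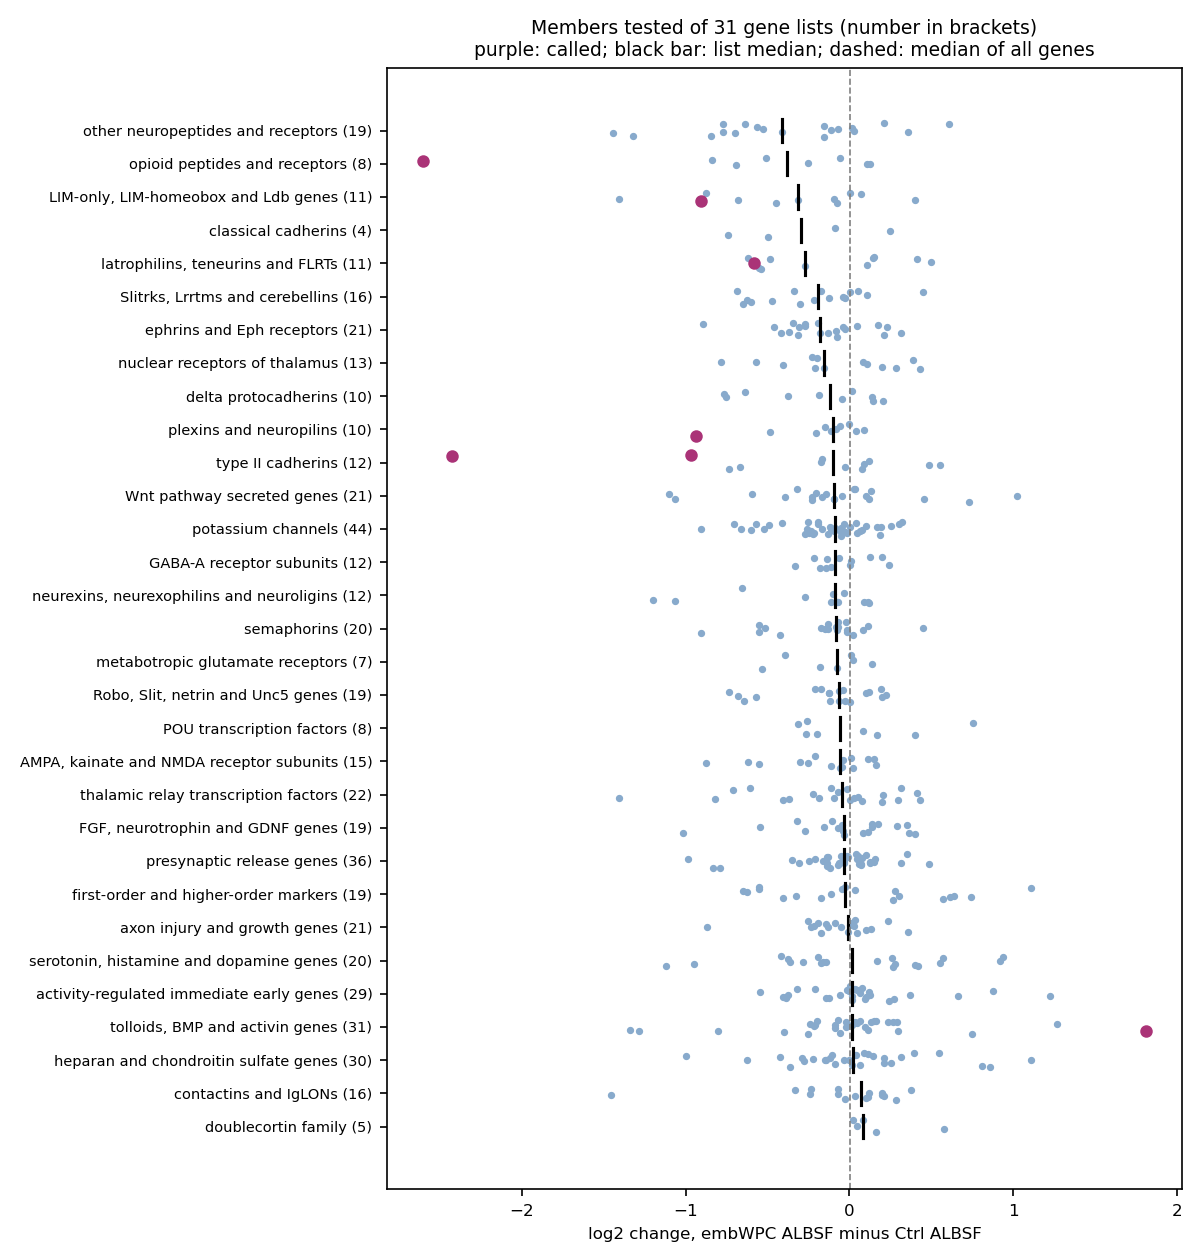
Log2 change of embWPC ALBSF against Ctrl ALBSF for each tested member of 31 gene lists, ordered by list median (black bar), with called genes in purple and the median of all genes as a dashed line. The 7 purple points fall in 6 lists, Tll1 alone being higher, and list medians run from -0.41 to 0.09. The doublecortin family, which has the highest median, the metabotropic glutamate receptors and the GABA-A receptor subunits are shown here only. In these lists DESeq2 called Grm4 lower and Dcdc2a higher, and voom called Dcdc2a.

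The precision of 4 pools against 4 sets what could be seen. The biological coefficient of variation was 14.98%, and the 95% interval of the log2 change reached a median of 0.25 to either side over the 13963 genes of at least 1 CPM. For 83.9% of the genes tested the interval lay within 1 log2 unit of 0 on both sides, and for 56.8% within 0.5 log2 units. Slc17a6, at 0.08 ± 0.09 (adjusted p = 0.790), was of the second kind.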

How the data were processed

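Poly-A RNA was sequenced from 12 libraries, 8 of them compared here. The deposited values are raw counts per Ensembl gene and library. Per the series' design text and the submitters' processing notes, the authors aligned reads with STAR 2.7.9a to GRCm39 and counted them with featureCounts (Subread 2.0.1); mm10 is also listed. Strand and multi-mapping settings are not given in the sources used here. Of 55359 genes, 54749 matched GENCODE M39 by identifier, which gave symbols and positions.

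Low counts were removed with filterByExpr by group (minimum count 10), leaving 16845 genes. The 8 libraries were fitted with edgeR 4.0.16 (TMM scaling, quasi-likelihood test, group as the only term, R 4.3.3), and Benjamini-Hochberg adjustment ran over every gene tested. Fold changes and SEs are from this fit. Marker sums, total counts, mitochondrial share and scaling factors, 16 measures in all, were compared with a two-sided exact permutation test (lowest adjusted p 0.456). Alternatives were DESeq2 1.42.0, voom with quality weights (limma 3.58.1), other scalings and filters, all 12 libraries, a replicate block and each library left out.

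The members and lists were chosen with earlier results of these data known. All called genes were named, then the next 12 by p (at least 1 CPM, no Gm, Rik or pseudogene names), up to 4 members with the smallest p per list described, and check genes. A gene that the rule takes and its list are not reported here. The procedure was tested on simulated data.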

Additional observations from a re-analysis of the deposited data

Results flagged for a closer look

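In groups of 4 pools, a pool was singled out where its gap to the nearest other pool, as a share of the range of the group, passed Dixon's 95% critical value. This met 12 of 210 groups examined, and chance alone gives about 1 in 20. In Ctrl ALBSF 1, Egr1 was 45.97 CPM (12.15 to 13.75 in the other 3), Fos 9.704 CPM (4.53 to 5.328) and Hdc 6.77 CPM (2.833 to 3.495). In Ctrl ALBSF 2, Ttr was 96.66 CPM (2.427 to 3.642) and the choroid plexus and ependyma markers summed to 115.21 CPM (20.235 to 23.792). Gnas was 20.57 CPM in Ctrl ALBSF 3 (14.12 to 14.56).

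In the embWPC ALBSF pools, Gbx2 was 14.57 CPM in pool 2 (1.863 to 3.23 in the other 3), where the habenula markers also summed to 106.74 CPM (41.969 to 50.652). Most of that sum was Calb2, at 68.31 CPM (4.315 to 13.57), and the list did not move as one. Nwd2 stood at 21.67 CPM in pool 2 (19.86 to 21.41) and Chrna3 at 8.776 CPM (8.236 to 9.891). GABAergic markers of the prethalamus summed to 49.821 CPM in pool 4 (15.62 to 19.253). The called genes Adgrl2, at 100.3 CPM in pool 3 (114.4 to 116.8), and Rps6ka2, at 17.72 CPM in pool 1 (20.67 to 20.84), and the gene Pcdh10, at 21.41 CPM in pool 1 (24.2 to 24.66), each had 1 low pool. For Adgrl2 and Pcdh10 the low pool lay farther from the controls, and for Rps6ka2 nearer to them.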

How the results depend on the processing

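The signs of all 14 called genes were the same in every alternative, which their non-overlapping groups all but fix. The number called was not the same. DESeq2 called 177 genes (66 higher, 111 lower), no count filter 187 (68 higher, 119 lower) and voom with quality weights 41 (17 higher, 24 lower); the first pair held all 14 and voom 13, without Penk. Leaving out each library in turn gave 0 to 33 calls, 0 to 12 higher and 0 to 21 lower, as given per library in the results. With the replicate number as a block edgeR called 1 gene (1 higher, 0 lower), Gnas, at an adjusted p of 0.0251. The deviations of same-numbered pools correlated at -0.155, 0.018, 0.037 and -0.156, and those of other pairs at -0.206 to 0.222. The labels do not say whether equal numbers mark a pair, and these correlations cannot settle it. Leaving out Ctrl ALBSF 2 and embWPC ALBSF 2 together, an alternative chosen after seeing the data, gave 1 call (1 higher, 0 lower), none of the 14. Fitting all 12 libraries gave 11 calls, 7 of them among the 14, with adjusted p up to 0.297 for the others. RLE scaling (14), upper-quartile scaling (15) and a filter of at least 1 CPM in 4 libraries (14) held all 14. Over the alternatives other than leaving out both pools 2, no log2 change of a called or listed gene given in the results turned sign (Krcc1 was not refitted). In 480 cases a list median moved by less than its SD over the embWPC ALBSF pools, and in 16 by more. The count of list members called higher held or nearly so in 451 cases and moved in 45. The count called lower held or nearly so in 408 and moved in 88. The causes were not tested.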
